A study of Rattus norvegicus with 6 samples.

Results

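The genes described here are 10 genes of mineralization and bone (Spp1, Ibsp, Dmp1, Bglap, Alpl, Enpp1, Phex, Mgp, Runx2 and Sp7), followed from the neonatal to the 6-8 week rat Achilles tendon. A row of the deposited table was taken for a member if the array annotation gave it a single gene symbol and that symbol was on the list. All 10 were found, each with 1 row, among the 22093 genes of the table. The tendons came from 3 male Sprague Dawley rats aged 1 day (P 1d) and 3 aged 6 to 8 weeks (P 6-8w). The labels name no transgene and no treatment other than age. Each tendon was dissected from the left hindlimb, freed of skin and hybridised to its own Affymetrix Rat Transcriptome Array. The values are log2 signals made by robust multichip analysis (RMA), in which a unit of 1 is a doubling of brightness, and every difference is the P 6-8w mean less the P 1d mean.

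Mineral forms outside the cell, where phosphate released by the phosphatase encoded by Alpl meets calcium on a collagen scaffold. Pyrophosphate made by the product of Enpp1, and matrix Gla protein from Mgp, hold crystals back. Osteoblasts, which carry the transcription factors Runx2 and Sp7, secrete acidic matrix proteins that bind the mineral, and osteocytes, buried in bone, take part in setting the phosphate level of the body through Phex and Dmp1. A tendon normally stays free of mineral along its length, and mineralized fibrocartilage is found where it enters the bone.

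Of the 10 genes, 4 were higher at P 6-8w and none was lower by limma, at a Benjamini-Hochberg adjusted p under 0.05 over all genes and a fold change over 2. The 4 were the bone matrix genes Spp1, Ibsp and Dmp1 and the calcification inhibitor gene Mgp. Over all genes the same rule called 19.2%, with 2.46% higher and 16.8% lower. The 3 P 6-8w arrays lay above the 3 P 1d arrays for 7 members and below them for 1, and the groups overlapped for 2. Among all genes the groups lay apart in 68.9%, with P 6-8w above in 34.8% and below in 34.1%. The median difference of the 10 was 0.45, against 0.04 over all genes. These were whole-tissue RNAs, in which more cells of a type and more RNA per cell cannot be told apart, and with 3 rats against 3 the exact two-sided permutation test of a single gene cannot give a p below 0.1.

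Before the single genes are described, the brightness of genes that tendon is not known to use needs to be given, because many of the 10 were dim. Olfactory receptor genes, which serve the nose, were taken as a measure of background. The 73 whose symbols begin with Olr had medians of 3.67, 3.62 and 3.65 on the P 1d arrays, against 4.23, 4.36 and 4.17 on the P 6-8w arrays. Their median difference was 0.61, from 0.0 to 2.15, and limma called 10 of them higher and none lower (13.7% in all). Over all 1125 olfactory receptor genes, a wider set added after the values were seen, 131 were called higher (11.6%). The 3 P 6-8w arrays lay above the 3 P 1d arrays for 50 of the 73 and 795 of the 1125, and below them for 0. Separation upward, seen in 7 of the 10 members, was thus as common among these background genes. The background was thus brighter on the P 6-8w arrays. As a mark of what lies above it, the 95th percentile of the 73 genes was 4.08, 4.01 and 4.05 on the P 1d arrays, against 4.92, 5.31 and 5.44 on the P 6-8w arrays. Spp1, Enpp1 and Mgp were above that mark on all 6 arrays, Ibsp on the 3 P 1d arrays and 2 of the P 6-8w arrays, and Phex on the 3 P 1d arrays. Alpl was above it on 1 P 1d array, and Bglap, Dmp1, Runx2 and Sp7 were above it on none. Against the same mark from all 1125 olfactory receptor genes, Dmp1 was above on 1 P 6-8w array, Ibsp on 2 arrays of each age and Alpl on none, with no change for the others.

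**Figure D1:**
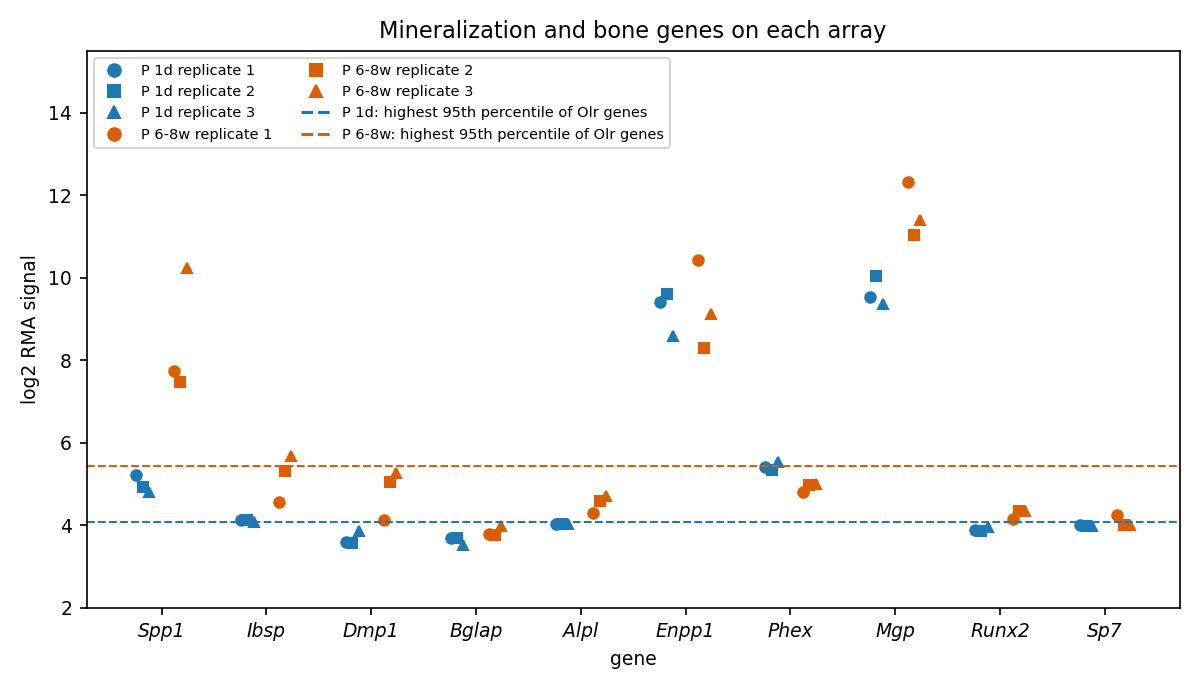
Signal of each of the 10 genes on each array (log2 RMA signal, vertical axis). Blue symbols are the 3 P 1d arrays, orange symbols the 3 P 6-8w arrays, and the dashed lines are the highest 95th percentile of the 73 Olr genes in each group, 4.08 at P 1d and 5.44 at P 6-8w. Spp1 and Mgp lie apart by age, each group above its own line, and Enpp1 lies above both lines with the ages mixed.

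Spp1 encodes osteopontin, an acidic phosphoprotein that binds integrins and the surface of mineral and that macrophages also secrete. Its signal was 5.22, 4.93 and 4.8 on the P 1d arrays, against 7.73, 7.47 and 10.24 on the P 6-8w arrays. Every P 6-8w array was brighter than every P 1d array, by 2.25 to 5.44 over the pairs, and P 6-8w replicate 3 stood well above the other two. The mean rose from 4.98 ± 0.22 (SD, n = 3) to 8.48 ± 1.53 (SD, n = 3), a difference of 3.5 with a standard error of 0.77 (95% interval 1.57 to 5.42), or 11.3-fold, with an adjusted p of 0.0135 from limma. Without P 6-8w replicate 3 the difference was 2.62 and still passed (adjusted p = 0.00203 from limma), and without P 1d replicate 3 it was 3.4 and did not (adjusted p = 0.05 from limma). None of the olfactory receptor genes had a difference as large.

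Ibsp encodes bone sialoprotein, which nucleates mineral in bone. Its signal was 4.13, 4.13 and 4.09 at P 1d, against 4.57, 5.32 and 5.69 at P 6-8w, so that the groups lay 0.44 apart. The P 1d values were almost equal, and the P 6-8w values were spread from close to the P 1d level to well above it. The mean rose from 4.12 ± 0.02 (SD, n = 3) to 5.19 ± 0.57 (SD, n = 3), a difference of 1.08 (standard error 0.29, 95% interval 0.36 to 1.8, adjusted p = 0.025 from limma).

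Dmp1 encodes dentin matrix protein 1, a phosphoprotein of osteocytes whose loss raises the phosphate hormone FGF23. It read 3.59, 3.57 and 3.85 at P 1d, against 4.13, 5.04 and 5.26 at P 6-8w, with the groups 0.28 apart. P 6-8w replicate 1 was again the lowest of its group, as for Ibsp. The mean went from 3.67 ± 0.16 (SD, n = 3) to 4.81 ± 0.6 (SD, n = 3), a difference of 1.14 (standard error 0.31, 95% interval 0.36 to 1.92, adjusted p = 0.0268 from limma).

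Both calls were close to their limits. Of all olfactory receptor genes, 8.98% had a larger difference than Ibsp and 6.13% a larger one than Dmp1. Among the 6122 genes with a mean signal between 4 and 5, as both had, limma called 5.0% higher and 0.441% lower. Leaving out any single array other than P 6-8w replicate 1 ended both calls, and without P 6-8w replicate 3 the differences were 0.83 for Ibsp (adjusted p = 0.0496 from limma) and 0.92 for Dmp1 (adjusted p = 0.0703 from limma). With the arrays centred on the median of the Olr genes, an alternative added after the values were seen, they were 0.47 (adjusted p = 0.188 from limma) and 0.53 (adjusted p = 0.159 from limma).

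Bglap encodes osteocalcin, the vitamin K-dependent protein that osteoblasts lay down in bone. It read 3.7, 3.7 and 3.53 at P 1d, against 3.78, 3.77 and 3.98 at P 6-8w. All 6 values were within the brightness of the olfactory receptor genes, and the groups were only 0.07 apart. The difference was 0.2 (standard error 0.09, 95% interval -0.02 to 0.42, adjusted p = 0.108 from limma), and 92.8% of all olfactory receptor genes had a larger one.

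The DNA around the annotated starts of the 4 bone matrix genes, of which 3 were called and Bglap was not, is shown. The windows are from RefSeq on the rat build GRCr8, from 250 bases before to 50 bases after the annotated start, and were found for 6 of the 10 members. They are printed 5′ to 3′ on the strand of the gene. Capitals mark matches to 3 short motifs searched on both strands, none of which overlapped another here. The Runx site was spelled TGTGGT, which reads ACCACA when it lies on the other strand. Other spellings were not searched, such as TGCGGT, which reads ACCGCA in reverse and occurs so in the printed Spp1 window. The box named for TATA was spelled TATAAA, which in reverse reads TTTATA. The last motif was the box CCAAT, which in reverse reads ATTGG. The coordinates are chr14:5619755-5620054 (minus strand) for Spp1, chr14:5757193-5757492 (minus strand) for Ibsp, chr14:5840035-5840334 (minus strand) for Dmp1 and chr2:176137269-176137568 (minus strand) for Bglap.
Spp1: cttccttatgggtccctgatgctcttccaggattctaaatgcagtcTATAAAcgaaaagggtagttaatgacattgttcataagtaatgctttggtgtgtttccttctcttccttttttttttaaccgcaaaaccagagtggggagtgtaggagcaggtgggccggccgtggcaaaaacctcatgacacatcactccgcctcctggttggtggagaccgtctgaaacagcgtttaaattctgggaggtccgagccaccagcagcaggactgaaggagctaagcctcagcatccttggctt
Ibsp: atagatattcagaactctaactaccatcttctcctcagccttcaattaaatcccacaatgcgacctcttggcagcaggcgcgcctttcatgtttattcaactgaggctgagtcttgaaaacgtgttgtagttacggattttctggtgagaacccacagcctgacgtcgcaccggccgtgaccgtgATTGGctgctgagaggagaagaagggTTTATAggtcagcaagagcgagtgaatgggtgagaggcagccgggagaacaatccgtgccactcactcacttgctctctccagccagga
Dmp1: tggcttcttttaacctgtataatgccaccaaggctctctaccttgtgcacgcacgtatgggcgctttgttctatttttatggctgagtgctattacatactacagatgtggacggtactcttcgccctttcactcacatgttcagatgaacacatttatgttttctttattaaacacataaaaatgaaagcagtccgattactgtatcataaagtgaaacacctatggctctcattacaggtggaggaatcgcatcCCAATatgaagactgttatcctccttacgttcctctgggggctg
Bglap: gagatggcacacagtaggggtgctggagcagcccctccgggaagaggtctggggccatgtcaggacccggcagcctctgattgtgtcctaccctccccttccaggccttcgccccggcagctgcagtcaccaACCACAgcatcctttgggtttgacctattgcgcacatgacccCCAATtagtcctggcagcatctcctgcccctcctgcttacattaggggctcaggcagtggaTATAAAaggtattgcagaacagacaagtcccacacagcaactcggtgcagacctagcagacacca

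The Bglap window was the only one of these 4 with a match to all 3 motifs, with ACCACA at base 133, CCAAT at base 175 and TATAAA at base 236 of the 300. Ibsp held both of its matches in reverse, ATTGG at base 186 and TTTATA at base 212. Of the spellings searched, Spp1 had only TATAAA at base 47, far from the start, and Dmp1 only CCAAT at base 257, after the start. Such short motifs are common: of 33469 rat promoter windows of the same length, 17.3% held the Runx site as spelled here, 14.2% the TATA box and 37.5% the CCAAT box on either strand. Of the other 2 members with a window, Alpl held none of the 3 motifs, and Runx2, which has a pair of windows for its separate starts, held 3 copies of ACCACA in the window of one start and no match in the other. A match is a run of letters and says nothing of whether a factor was bound in these tendons. Whether transcription begins at each annotated start was not tested. In the Dmp1 window ATG follows the CCAAT match directly, so this window may cover coding sequence and may not be comparable with the others as a promoter.

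Spp1, Ibsp and Dmp1 belong, with Mepe and Dspp, to a cluster of related acidic matrix genes on chromosome 14. Mepe, which encodes an osteocyte phosphoglycoprotein, read 3.29, 3.29 and 3.25 at P 1d, against 3.76, 5.28 and 3.89 at P 6-8w, with P 6-8w replicate 2 far above the rest of its group, and its difference of 1.03 did not pass (adjusted p = 0.0859 from limma). Dspp, which encodes the dentin proteins of teeth, read 3.78, 3.58 and 3.58 and then 4.51, 4.48 and 4.53. Its P 6-8w values were nearly equal, and its difference of 0.86 had an adjusted p of 0.000779 from limma but was under the fold limit. All 5 genes of the cluster thus had P 6-8w values above their P 1d values. The same held for 34.8% of all genes and for 795 of the 1125 olfactory receptor genes. The differences of the 5 stayed positive under the 4 other scalings, but with centring on the Olr median only Spp1 passed. There Mepe had a difference of 0.43 (adjusted p = 0.328 from limma) and Dspp of 0.25 (adjusted p = 0.0681 from limma). Mepe, Dmp1 and Dspp stayed under the mark of the 73 Olr genes on all 6 arrays.

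Of the 10 measured neighbours on either side of the cluster, 2 were called lower and none higher as deposited, but 1 was called higher and none lower under quantile normalization, and 5 higher and none lower with centring on reference genes. With centring on the named-gene median 2 were lower, and on the Olr median 4, with none higher. Of the 5 cluster genes, 3 were called higher as deposited and 2 with centring on the named-gene median. Quantile normalization and centring on the Olr median each left 1, Spp1, and centring on reference genes called all 5. No cluster gene was called lower under any of these. Pkd2, the polycystin 2 gene next to Spp1, had values of 9.57 to 9.88 at P 1d and of 7.84 to 8.98 at P 6-8w, a difference of -1.1 (adjusted p = 0.0369 from limma) that turned to 0.65 under quantile normalization (adjusted p = 0.0461 from limma). Thoc2l beyond it had a difference of -1.05 (adjusted p = 0.00307 from limma), and of -0.3 under quantile normalization (adjusted p = 0.23 from limma). On the other side, next to Dspp, Sparcl1, which encodes a matrix protein related to osteonectin, read 12.86, 12.8 and 13.11 at P 1d, against 14.43, 12.95 and 12.87 at P 6-8w. Its groups overlapped, with only P 6-8w replicate 1 clearly higher, and the difference of 0.49 did not pass (adjusted p = 0.367 from limma). It was 2.95 and passed under quantile normalization (adjusted p = 0.00252 from limma), and 1.44 with centring on reference genes (adjusted p = 0.000841 from limma), so that the contrast between the cluster and its neighbours depended on the scaling.

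**Figure D2:**
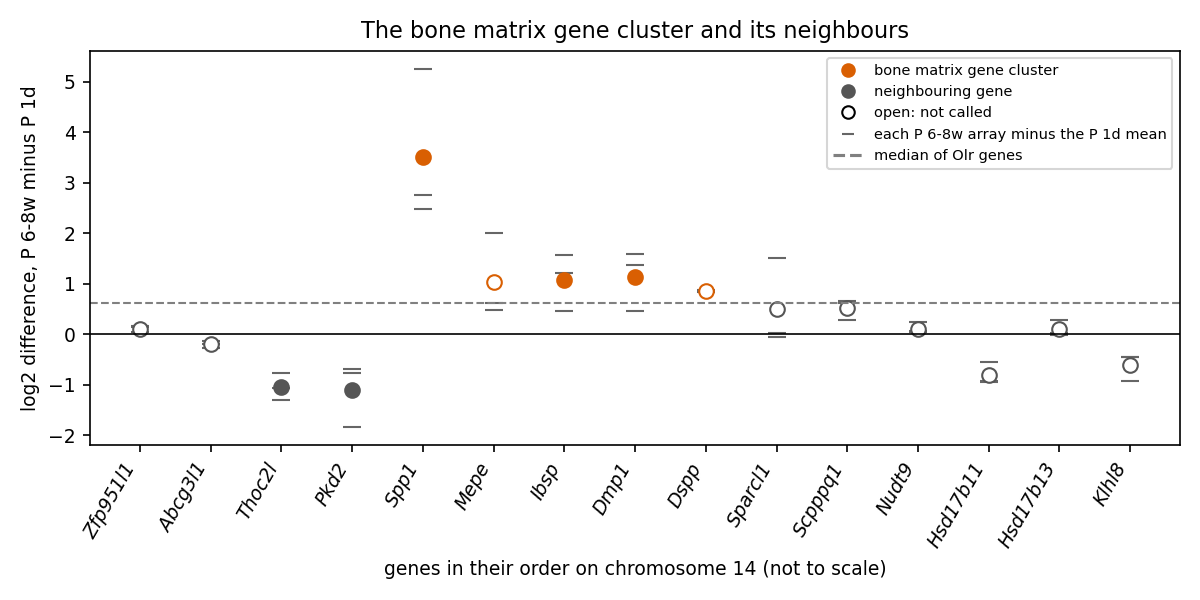
Difference between P 6-8w and P 1d on the log2 scale (vertical axis) for the bone matrix gene cluster on chromosome 14 and its neighbours, in chromosomal order and not to scale. Circles are differences of means (orange for the cluster, grey for neighbours, filled where called), short bars are each P 6-8w array minus the P 1d mean, and the dashed line is the Olr median of 0.61. The 5 orange circles lie above the dashed line, from 0.86 for Dspp to 3.5 for Spp1, and no grey one does in the values as deposited.

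Of the genes that set phosphate and pyrophosphate, none passed the rule. Alpl encodes tissue-nonspecific alkaline phosphatase, which splits pyrophosphate. It read 4.03 on each P 1d array and 4.3, 4.58 and 4.72 at P 6-8w, so that the groups lay 0.27 apart. The difference of 0.5 (95% interval 0.21 to 0.79) had an adjusted p of 0.0158 from limma and was under the fold limit, and 62.8% of all olfactory receptor genes had a larger one.

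Enpp1 encodes the enzyme that makes pyrophosphate from nucleotides, and was bright at both ages. It read 9.41, 9.61 and 8.58 at P 1d, against 10.44, 8.3 and 9.12 at P 6-8w. The P 6-8w group held both the highest and the lowest of the 6 values. The means were 9.2 ± 0.55 (SD, n = 3) and 9.29 ± 1.08 (SD, n = 3), with a difference of 0.09 (adjusted p = 0.911 from limma). The 95% interval, from -1.42 to 1.6, still allows a change of more than 2-fold either way. The scaling decided the call: Enpp1 was higher by 1.84 under quantile normalization (adjusted p = 0.0208 from limma) and by 1.03 with centring on reference genes (adjusted p = 0.0223 from limma).

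Phex encodes an endopeptidase of osteoblasts and osteocytes whose loss causes wasting of phosphate. It was the only member with all P 6-8w values below all P 1d values, at 5.41, 5.33 and 5.54 for P 1d and 4.81, 4.97 and 5.0 for P 6-8w. The difference of -0.5 (95% interval -0.72 to -0.28) had an adjusted p of 0.00645 from limma and was under the fold limit, and it turned to 0.44 with the arrays centred on reference genes. Phex was above the olfactory receptor mark on the 3 P 1d arrays and on none of the P 6-8w arrays. All 1125 olfactory receptor genes had a larger difference (100% of them), and with the arrays centred on the Olr median Phex was called lower, at -1.11 (adjusted p = 0.000291 from limma).

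Mgp encodes matrix Gla protein, a small vitamin K-dependent protein that keeps arteries and cartilage from calcifying. It read 9.53, 10.03 and 9.36 at P 1d, against 12.31, 11.03 and 11.4 at P 6-8w. The groups lay 1.0 apart, and P 6-8w replicate 1 was the highest. The mean rose from 9.64 ± 0.35 (SD, n = 3) to 11.58 ± 0.66 (SD, n = 3), a difference of 1.94 with a standard error of 0.37 (95% interval 1.01 to 2.87), or 3.84-fold, with an adjusted p of 0.00885 from limma. Leaving out any single array kept the call, with differences from 1.58 to 2.22. Genes as bright as this mostly went the other way in the values as deposited. Of the 400 with a mean signal between 10 and 12, limma called 74.5% lower and 3.25% higher. That balance was not followed under other scalings, and over all genes 87.2% of the calls were lower as deposited and 11.7% with centring on reference genes.

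Neither osteoblast transcription factor passed the rule. Runx2, the factor without which no osteoblasts form in mice, read 3.88, 3.85 and 3.96 at P 1d, against 4.16, 4.35 and 4.35 at P 6-8w. The groups lay 0.2 apart, and the difference of 0.39 (95% interval 0.2 to 0.58) had an adjusted p of 0.00983 from limma but was under the fold limit. Sp7, which encodes osterix and acts after Runx2, read 4.0, 3.98 and 3.99 and then 4.24, 4.0 and 4.0. Its groups met at 4.0, and the difference was 0.09 (95% interval -0.12 to 0.3, adjusted p = 0.379 from limma). Both were within the olfactory receptor range on all 6 arrays, and 76.7% and 97.5% of all olfactory receptor genes had a larger difference than Runx2 and Sp7.

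**Figure D3:**
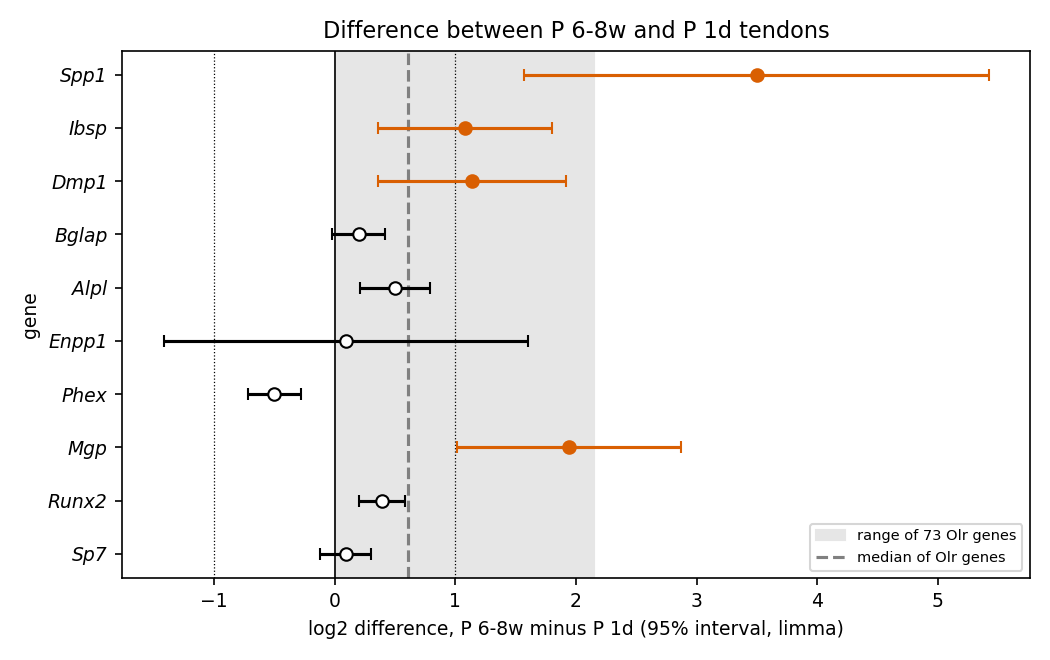
Difference between P 6-8w and P 1d on the log2 scale (horizontal axis) with its 95% interval from limma for the 10 genes. Filled orange points passed the rule, dotted lines mark a 2-fold change, and the grey band with its dashed line gives the range (0.0 to 2.15) and median (0.61) of the 73 Olr genes. Spp1 lies right of the band at 3.5, Phex left of it at -0.5, and the other 8 lie inside it.

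How far the sizes depend on the scale of the arrays was examined in the same fit. The 10 reference genes, among them Gapdh, Ppia and Hprt1, were not level as deposited. Their mean was 10.5, 10.6 and 10.54 on the P 1d arrays, against 9.93, 9.31 and 9.57 on the P 6-8w arrays. The P 6-8w arrays lay below the P 1d arrays for 9 of them, and 4 were called lower, so that centring on them raised every difference. Centring on the named-gene median moved the median of all genes from 0.04 to -0.08, centring on the Olr genes moved it to -0.56, and centring on reference genes moved it to 0.99. Spp1 and Mgp passed under each of these, with differences of 3.37 and 1.81, of 2.89 and 1.33, and of 4.44 and 2.88, in that order. Quantile normalization gave 4.41 for Spp1 and 4.15 for Mgp. Bglap, Alpl, Runx2, Sp7, Enpp1 and Phex changed sign under at least 1 of them, so that the direction of these 6 rests on the scaling.

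The members were then compared within the P 6-8w group. Among the 9 with a single highest P 6-8w array, that array was replicate 3 for 6 (66.7%), replicate 1 for 3 and replicate 2 for none. Replicate 3 was the highest for 28.1% of all genes, 38.0% of the 73 Olr genes and 33.5% of all olfactory receptor genes, and replicate 1 for 39.7% of all genes. Spp1, Ibsp, Dmp1, Bglap, Alpl and Phex had replicate 3 on top, and Enpp1, Mgp and Sp7 had replicate 1.

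For each of the 4 called genes, the genes with the nearest profiles were found by the root mean square distance over the 6 arrays, after each profile had been centred on its own mean. Nearest to Spp1 were Pkhd1l1, which encodes a large fibrocystin-like membrane protein, at a distance of 0.48, the unnamed locus LOC102555256 at 0.51 and the vomeronasal receptor gene Vom2r6 at 0.65. Nearest to Mgp were Slfn5 at 0.14, Samd9l at 0.2 and Entpd1, an ectoenzyme gene that splits extracellular ATP, at 0.2. The profiles nearest to Ibsp were those of the olfactory receptor genes Or2w1 and Or14j5e, both at 0.04, and of Tdpoz2l5 at 0.06, and Dmp1 had 3 olfactory receptor genes nearest, Or52n2b and Or8b47 at 0.11 and Or2w1 at 0.12. Among the 20 nearest genes, olfactory receptor genes numbered 11 for Dmp1, 8 for Ibsp, 1 for Spp1 and 0 for Mgp.

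**Figure D4:**
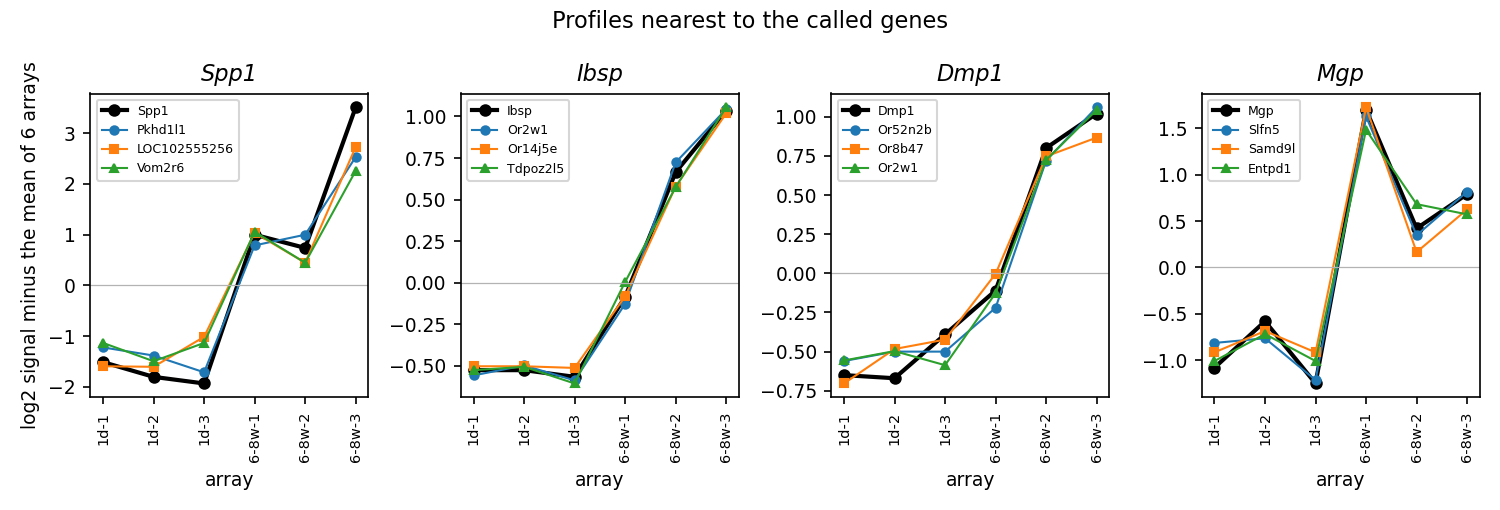
Log2 signal minus the mean of the 6 arrays (vertical axis) on each array for the 4 called genes (black) and the 3 genes with the nearest profile to each (colours). The arrays 1d-1 to 1d-3 are P 1d and 6-8w-1 to 6-8w-3 are P 6-8w, and the vertical scale differs between panels. The olfactory receptor genes lie within 0.04 of Ibsp and within 0.12 of Dmp1, as root mean square distances.

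Beyond the 10, 43 of 44 further genes of the same process were measured, in 5 lists by role. Of these, 3 were called higher, 6 lower and 34 not (20.9% called, against 19.2% of all genes), and their median difference was 0.06. The balance of directions turned with the scaling, with 5 higher and 2 lower under quantile normalization and 22 higher and 3 lower with centring on reference genes. The 2 higher genes of the bone matrix list, of 8 measured, were Omd and Clec11a. Omd encodes osteomodulin, a leucine-rich proteoglycan of bone, and read 4.97, 5.76 and 5.15 at P 1d, against 9.35, 7.83 and 9.53 at P 6-8w. Its groups lay 2.07 apart, and the difference was 3.61 (standard error 0.51, 12.2-fold, adjusted p = 0.0033 from limma). Clec11a, which encodes the bone growth factor osteolectin, had a difference of 1.13 (adjusted p = 0.00804 from limma), which was 0.96 and under the fold limit without P 6-8w replicate 3, and 0.53 with centring on the Olr median (adjusted p = 0.103 from limma). Sparc, the osteonectin gene, stood at the highest value of every array (19.56 to 19.79), so that no difference can be read in it.

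Among the 6 calcification inhibitor and vitamin K genes, 1 was higher and 1 lower. Ucma encodes Gla-rich protein, which like matrix Gla protein is vitamin K-dependent and is best known from cartilage. It read 4.21, 4.12 and 4.13 at P 1d, against 8.53, 7.65 and 7.81 at P 6-8w. The groups lay 3.44 apart, and the difference was 3.84 (standard error 0.24, 14.4-fold, adjusted p = 0.00033 from limma). Gas6, whose vitamin K-dependent product is a ligand of the TAM receptor kinases, fell by 1.67 (adjusted p = 0.0014 from limma), and by only 0.06 under quantile normalization (adjusted p = 0.809 from limma). The genes of the vitamin K cycle did not pass, with differences of -0.53 for Ggcx (adjusted p = 0.0771 from limma) and -0.87 for Vkorc1 (adjusted p = 0.0596 from limma).

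Of 8 genes for phosphate, pyrophosphate and matrix vesicles, only Slc20a2 passed. It encodes the phosphate importer PiT-2 and read 9.53, 9.86 and 10.1 at P 1d, against 6.02, 6.0 and 5.83 at P 6-8w. With the groups 3.51 apart, it fell by 3.88 (standard error 0.16, adjusted p = 0.000145 from limma). Ankh, which encodes a membrane protein that passes ATP and pyrophosphate out of the cell, read 7.38, 7.34 and 7.38 and then 8.79, 7.69 and 7.7, and Nt5e, the ectonucleotidase that yields adenosine, read 6.27, 6.08 and 6.02 and then 8.04, 6.29 and 6.96. In both, P 6-8w replicate 1 was the highest, and the differences of 0.69 and 0.97 did not pass (adjusted p = 0.113 for each from limma). Phospho1, the phosphatase of matrix vesicles, had a difference of 0.17 (adjusted p = 0.0699 from limma) and was under the olfactory receptor mark on all 3 P 6-8w arrays.

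Of 15 osteoblast transcription factors and receptors, 2 were lower and none higher. Cbfb, the partner subunit that Runx proteins need to bind DNA stably, read 9.19, 9.03 and 8.96 at P 1d, against 7.92, 7.14 and 7.43 at P 6-8w. It fell by 1.56 (adjusted p = 0.00283 from limma), with the groups 1.04 apart, but by 0.01 under quantile normalization (adjusted p = 0.969 from limma). Lrp6, a Wnt co-receptor gene, fell by 2.11 (adjusted p = 0.0157 from limma), a call that was lost without P 1d replicate 1 (-2.06, adjusted p = 0.0556 from limma), without P 1d replicate 2 (-2.09, adjusted p = 0.0553 from limma) and under quantile normalization (-0.23, adjusted p = 0.578 from limma). The 6 genes of the osteocyte list held 2 that were lower, Pdpn by 4.03 (adjusted p = 0.00221 from limma) and Fgfr1 by 1.8 (adjusted p = 0.00402 from limma). Podoplanin, the product of Pdpn, marks early osteocytes and also lymphatic vessels and fibroblasts, and Fgfr1 is used by many cell types. Fgfr1 fell by 0.17 under quantile normalization (adjusted p = 0.358 from limma). Sost, the sclerostin gene of mature osteocytes, and Fgf23 were dim at both ages, with differences of 0.06 (adjusted p = 0.505 from limma) and 0.5 (adjusted p = 0.0702 from limma).

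**Figure D5:**
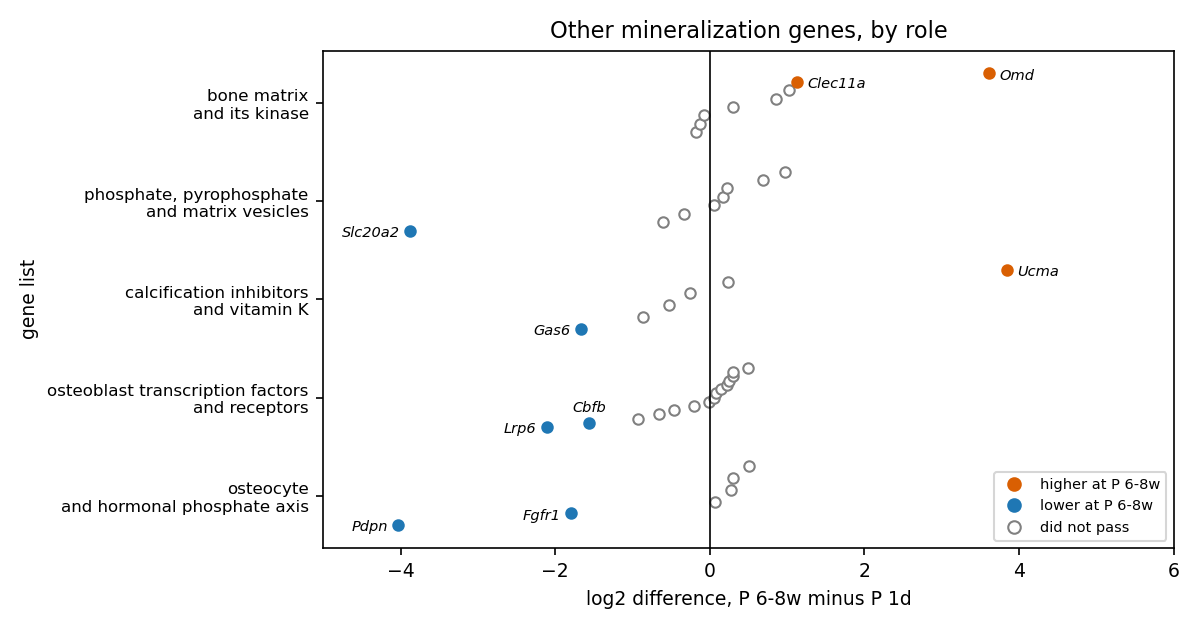
Difference between P 6-8w and P 1d on the log2 scale (horizontal axis) for 43 further mineralization genes in 5 lists by role. Orange points were called higher, blue points lower, and open points did not pass. Omd (3.61) and Ucma (3.84) lie far to the right, and Slc20a2 (-3.88) and Pdpn (-4.03) far to the left.

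The cells that the samples could hold were read from marker lists. Of 10 osteoclast markers none was called. Ctsk, the cathepsin K gene, was the brightest of them and read 9.94, 10.07 and 8.47 at P 1d, against 8.95, 7.2 and 8.44 at P 6-8w, a difference of -1.3 that did not pass (adjusted p = 0.128 from limma). Acp5 and Mmp9 were dim. Acp5 read 3.91, 3.86 and 3.91 at P 1d, against 4.05, 4.09 and 4.67 at P 6-8w, and Mmp9 read 3.56, 3.46 and 3.56 and then 3.95, 3.79 and 4.84. P 6-8w replicate 3, the array with the most Spp1, was the highest P 6-8w array for 3 of the 10 markers, replicate 2 for 4 and replicate 1, the highest for Ctsk, for 2, with 1 tie. The part of osteoclasts in the Spp1 result was not tested. The summed linear signal of the list, on the log2 scale, ranged from 9.1 to 10.32 at P 1d, and from 8.62 to 9.47 at P 6-8w. Ctsk was the brightest of the list on every array and weighs most in this sum. The 3 P 6-8w arrays lay above the 3 P 1d arrays for 7 of the 10 markers and below them for 0. Their median difference was 0.4, against 0.61 for the 73 Olr genes, of which 50 lay above.

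Of 10 macrophage markers 3 were lower (Cd68, Mrc1 and C1qb) and none higher, and none of the 3 passed under quantile normalization, with summed signals of 9.44 to 11.1 at P 1d and 9.07 to 9.41 at P 6-8w. Of 9 cartilage markers none was called, and the sums ranged from 8.31 to 8.76 and from 8.37 to 8.72. Col2a1, the type II collagen gene, read 7.15, 6.9 and 6.75 and then 6.9, 6.51 and 6.9, and Col10a1, the gene of hypertrophic cartilage, had no P 6-8w value above the olfactory receptor mark.

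The tendon itself was seen in Tnmd, the tenomodulin gene, at 14.91, 14.38 and 13.44 at P 1d, against 13.47, 9.36 and 12.37 at P 6-8w, whereas the tendon transcription factor genes Scx and Mkx were dim (4.44 to 5.08 on the 6 arrays). Of 8 tendon markers 1 was lower, Tnc (-2.51, adjusted p = 0.0182 from limma), and 7 did not pass. Tnc differed by -0.4 under quantile normalization (adjusted p = 0.523 from limma). Col1a1 and Col1a2 stood at the highest value of every array. Other tissue moved with age. Of 4 adipocyte markers 3 were higher, and Adipoq, the adiponectin gene, read 4.24, 4.92 and 3.86 and then 11.47, 8.15 and 7.77, highest on P 6-8w replicate 1 as Mgp was. Of 5 smooth muscle markers, Myh11, the smooth muscle myosin gene, was higher by 4.02 (adjusted p = 0.000773 from limma), Des was lower, and 3 did not pass. Vascular smooth muscle is a known source of Mgp. The 5 endothelial markers went both ways. Cdh5 (-1.89, adjusted p = 0.00245 from limma) and Kdr (-2.84, adjusted p = 0.00699 from limma) were called lower. Under quantile normalization neither was called, at 0.72 (adjusted p = 0.0859 from limma) and -0.93 (adjusted p = 0.0967 from limma). Pecam1, Tek and Vwf had differences of 0.08, 0.77 and 0.74 and were not called. The part of these tissues in the Mgp result was not tested. The sums ranged from 10.12 to 11.24 and from 11.28 to 13.35 for adipocyte markers, and from 17.66 to 17.96 and from 15.43 to 16.37 for smooth muscle markers. Des, the brightest of the smooth muscle list at P 1d, had means of 17.06 and then 12.02, so that this sum does not follow Myh11. The skeletal muscle marker Ckm had means of 17.01 and then 12.62. The part of skeletal muscle in the Des signal was not tested, so this sum cannot be read as smooth muscle alone. The smooth muscle markers that did not pass differed by 1.06 for Cnn1, 0.14 for Tagln and -0.53 for Acta2.

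Although the tendons had been freed of skin, epidermal markers were bright on P 1d replicates 1 and 3 and dim on replicate 2, with Krt1 at 17.94, 18.86 and 4.25, in that order. Against P 1d replicate 2 alone the differences were 3.55 for Spp1, 1.55 for Mgp, 1.06 for Ibsp and 1.24 for Dmp1. None of these passed in that fit (adjusted p from 0.195 to 0.257 from limma), in which the spread of the P 6-8w arrays stood for both groups and 1159 of all genes were called. Of 6 skeletal muscle markers measured, 4 were lower and 1 higher. The part of muscle and skin RNA in the values of the 10 genes was not tested.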

How the data were processed

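RNA of Achilles tendons from 3 P 1d and 3 P 6-8w rats was hybridised to Affymetrix Rat Transcriptome Arrays, 1 rat per array. Signals were summarised by the authors with RMA at its defaults and scaled globally, and were deposited as log2 values with 2 decimals. A second deposited table held equal values (413052 of 413052) and was not used further. Some signals exceed what a 16-bit scanner can read, by a step that no source used here gives, and log2 differences may depend on that step. Arrays have no read depth, so their number and the signal over background limit the precision.

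Of 68842 rows, 23446 named a single gene in the platform annotation, 505 named several and 44891 none. The brightest row by mean stood for each of the 1182 genes with several rows. The age groups were tested over 22093 genes in R 4.3.3 by limma 3.58.1 (lmFit, eBayes) with no covariate. A call needed an absolute difference over 1 and an adjusted p (Benjamini-Hochberg) under 0.05. The p-values measure the spread between these rats. This step was checked on simulated data. The same replicate numbers did not pair the samples: deviations from the group means correlated at 0.01, -0.113 and 0.046.

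The 10 genes, the further lists and the markers were chosen with earlier results of these data known. Named were all 10 genes, each called gene of the 5 further lists with those at 8 or more on every array, the defining genes of the marker lists, and the 3 nearest profiles of each called gene. Phospho1, Ankh, Nt5e, Ggcx, Vkorc1, Sost, Fgf23, Mepe, Dspp and the neighbours on chromosome 14 were named after their values were seen. Alternatives were 3 scalings, the methods' t-test (adjusted or not), limma-trend, dropping the fold limit, a replicate block, leaving out each array, leaving out genes with a mean under 6, and the mean of a gene's rows. Added after seeing the data were centring on Olr genes, P 1d replicate 2 alone, and the set of all olfactory receptor genes. Neighbours and promoter windows came from RefSeq (GRCr8), used otherwise only for names. Python 3.11.15 was used for tables.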

Additional observations from a re-analysis of the deposited data

How the results depend on the processing

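Over 18 alternatives, the 10 genes gave 173 values, of which 128 kept direction and call, 22 lost the call, 10 gained it and 13 changed sign. Of the 10 genes, 4 were called as deposited. The count was 9 with centring on reference genes, 2 by the methods' t-test after Benjamini-Hochberg adjustment, 7 with no fold limit, 2 with dim genes left out (which kept 3 of the 10), 0 against P 1d replicate 2 alone, and 1 to 4 when single arrays were left out. Of the 43 further genes, 9 were called, against 25 with centring on reference genes, 19 with no fold limit, 14 with centring on Olr genes, 2 against P 1d replicate 2 alone, and 8 to 11 with single arrays left out. They were 7 under quantile normalization. Of all genes, 4249 were called, 87.2% of them lower. There were 12209 with centring on reference genes (11.7% lower), 1884 under quantile normalization (52.5% lower), 12005 with no fold limit (56.3% lower), 6909 with centring on Olr genes (98.1% lower), 1159 against P 1d replicate 2 alone, and 3791 to 4677 with single arrays left out. The fit with the replicate block called 4 of the 10, 9 of the 43 and 4136 of all genes, and changed no call of the 10.

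Signs turned with the scaling for Enpp1 (-0.04) and Sp7 (-0.04) with centring on the named-gene median, Phex (0.44) with centring on reference genes, Bglap (-0.15) and Sp7 (-0.29) under quantile normalization, and Bglap (-0.41), Alpl (-0.1), Enpp1 (-0.52), Runx2 (-0.22) and Sp7 (-0.52) with centring on Olr genes. Enpp1 ran from -0.49 to 0.58 with single arrays left out, turning without P 1d replicate 3 (-0.22) and without P 6-8w replicate 1 (-0.49), and was -0.32 against P 1d replicate 2 alone, but gained a call under quantile normalization (1.84) and with centring on reference genes (1.03). Ibsp lost its call in 10 of 17 alternatives and Dmp1 in 9 of 17, Spp1 in 2 of 18 and Mgp in 1 of 18. Their adjusted p from limma or the methods' test ranged from 0.000352 to 0.257, 0.000385 to 0.228, 0.00011 to 0.196 and 8.44e-06 to 0.195. The cause of these changes was not tested. Bglap, Runx2 and Sp7 were not above the 95th percentile of the olfactory receptor genes on any array, by either set, and Dmp1 was above that of the wider set on 1 array.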
